A study of Mus musculus with 3 samples.

Results

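Type 2 innate lymphoid cells are recognised by a set of surface receptors, and 9 of their genes are described here. They are Il7r, Il2ra, Il2rb, Il2rg and Il17rb, which encode chains of interleukin receptors, Tnfrsf18 and Tnfrsf4, which encode costimulatory receptors of the tumour necrosis factor receptor superfamily, Icos, a costimulatory receptor of the CD28 family, and Klrg1, an inhibitory lectin-like receptor. The genes were listed by name, and every probe set that the platform's gene table names after one of them was taken. A probe set naming that gene alone was found for 8 of the 9, 1 for each gene, out of 22180 genes compared. Il2rg, which encodes the common γ chain, is not analysed here. Levels were measured in cells sorted from the peritoneal cavity of naive female BALB/c mice aged 10 to 11 weeks, pooled from 5 animals, with 1 array per population made from 100 lysed cells. No treatment or genetic change is given for any group. Mast cell progenitors and mature mast cells were both sorted as c-kit high, FcεRI positive, CD127 negative and CD25 negative. Side scatter was low and integrin β7 high for the progenitors, while side scatter was high and integrin β7 between negative and intermediate for the mature cells. The type 2 innate lymphoid cells were FcεRI negative, c-kit negative or low, and positive for CD127 and CD25. All 3 populations were positive for T1/ST2. With 1 array per population no value has an error, no difference could be tested, and differences between animals are not measured because the mice were pooled.

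These receptors let innate lymphoid cells answer cytokines and ligands on neighbouring cells without an antigen receptor. The interleukin 7 receptor is made of the Il7r chain, CD127, with the common γ chain, and carries a survival signal through the kinases Jak1 and Jak3 and the transcription factor Stat5. The high-affinity interleukin 2 receptor adds the Il2ra chain, CD25, to the Il2rb and common γ chains, and Il2rb also serves interleukin 15. Il17rb pairs with Il17ra to bind interleukin 25, an epithelial cytokine that activates type 2 innate lymphoid cells. ICOS binds ICOS ligand, GITR (Tnfrsf18) and OX40 (Tnfrsf4) bind ligands of the tumour necrosis factor family, and KLRG1 binds cadherins and inhibits the cell. In mice KLRG1 is known as a surface marker of mature type 2 innate lymphoid cells.

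Of the 8 measured receptor genes, 3 were at least 2-fold brighter in the innate lymphoid array than in both mast cell arrays, Il7r, Tnfrsf18 and Klrg1, as 1.1% of all genes were. Il2ra, Il2rb and Icos were brighter by less than 2-fold. Tnfrsf4 was level across the populations, and Il17rb was below the median on every array. A 4-fold difference means a gap of 2 or more between the log2 levels of both arrays, with the brighter level above the median of its array over probe sets naming 1 gene. The median was 6.32 on the progenitor array and 6.30 on each of the others, and a level below it is not separated from the bulk of dim probe sets. Against progenitors, 3 of the 8 genes were at least 4-fold higher in innate lymphoid cells, where 0.888% of all genes were. Against mature mast cells, 2 of the 8 were at least 4-fold higher, Il7r and Klrg1, where 0.401% of all genes were. Both of these were at least 4-fold above each mast cell array, as 0.37% of all genes were. None of the 8 was at least 4-fold lower in innate lymphoid cells, where 0.207% of all genes were lower than in progenitors and 0.573% lower than in mature cells. The genes were listed as receptors of innate lymphoid cells with results of these arrays known, so the counts describe the list and nothing more. In sorted pools such as these, fewer cells carrying a transcript and less transcript per cell cannot be told apart.

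**Figure D1:**
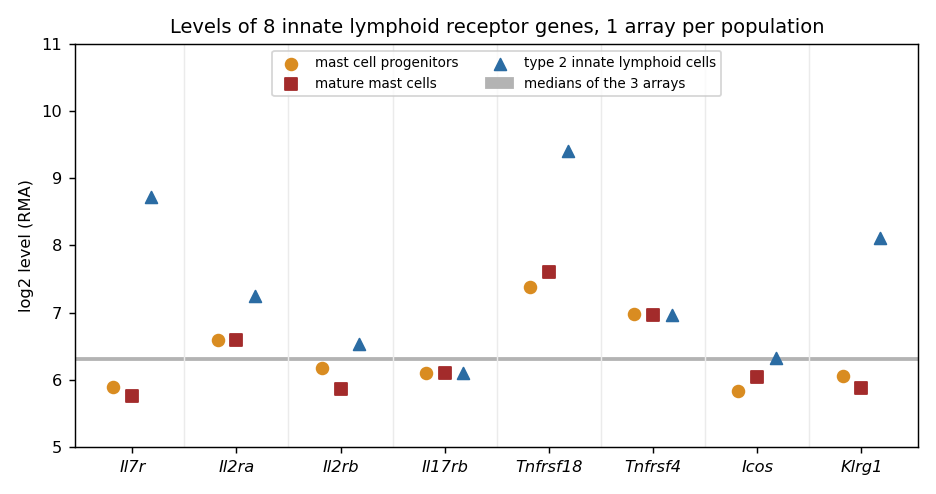
Log2 RMA level (vertical axis) of 8 receptor genes (horizontal axis), with 1 point for each array, and a grey band for the medians of the 3 arrays (6.30 to 6.32). The innate lymphoid points (triangles) of Il7r, Tnfrsf18 and Klrg1 lie at 8.72, 9.41 and 8.11, well above the mast cell points of the same genes, whereas the 3 points of Il17rb and of Tnfrsf4 coincide or nearly so.

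The Il7r transcript had a log2 level of 5.89 on the progenitor array, 5.76 on the mature mast cell array and 8.72 on the innate lymphoid array. Both mast cell levels lay below their array's median, and only the innate lymphoid level lay above it. The difference was 2.83 against progenitors and 2.96 against mature cells. With the mast cell level set to its array's median, this is at least 5.29-fold and at least 5.36-fold. Il7r ranked 38 of all 22180 genes by the difference between the innate lymphoid array and the brighter mast cell array, a measured gap that rests on a mast cell level below the median. CD127, its protein, was used to sort the populations, so the direction follows the gate and is not independent of it.

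Il2ra, whose protein CD25 was used in the same gates, was at 6.58 on the progenitor array, 6.58 on the mature array and 7.25 on the innate lymphoid array. The mast cell values were exactly equal, and the innate lymphoid level was 0.66 higher on the log2 scale, or 1.58-fold. All 3 levels lay above their array's median. The order of the arrays therefore followed the gate for both proteins, but Il7r passed the 4-fold rule and Il2ra did not reach 2-fold. A difference of at least this size in favour of innate lymphoid cells was found in 3.03% of all genes against progenitors and in 2.37% against mature cells. A level above the median, or an exact tie there, does not by itself show a detected transcript. The mast cell levels of Il2ra may therefore include background, and the measured 1.58-fold may be smaller than the difference in transcript, which was not tested.

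The proteins that defined the mast cell gates give a comparison for this step from protein to transcript. Kit, which encodes c-kit, was at 6.88 on the progenitor array, 10.29 on the mature array and 6.63 on the innate lymphoid array. Fcer1a, the IgE-binding chain of FcεRI, was at 5.37, 8.87 and 5.05 in the same order. For Kit, the progenitor array, from cells positive for the protein, lay 0.26 above the innate lymphoid array, and the mature array lay 3.66 above it. The Fcer1a levels of progenitors and innate lymphoid cells were both below their array's median, so their gap is not resolved, and only the mature level lay above its median.

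**Figure D2:**
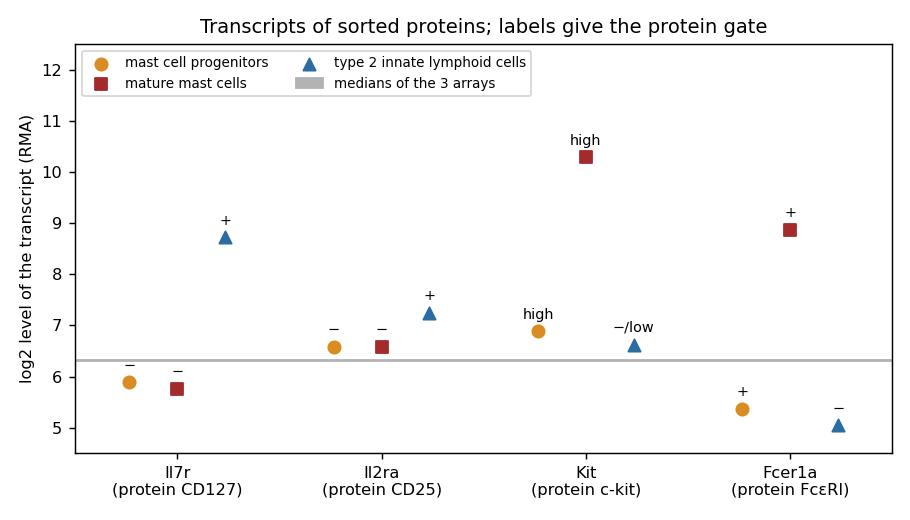
Log2 RMA level (vertical axis) of 4 transcripts whose proteins were used in the sort (horizontal axis), 1 point per array, with the protein gate of that population written above each point and the array medians as a grey band. The measured gap between the positive population and the brighter negative one is 2.83 for Il7r, whose mast cell points lie below the band, and 0.66 for Il2ra, the progenitor point of Kit (6.88) lies close to that of the innate lymphoid cells (6.63), and both Fcer1a points of these populations (5.37 and 5.05) lie below the band.

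Promoter sequences of these genes are shown because Il7r and Tnfrsf18 were both brighter in innate lymphoid cells, while Il2ra differed less and Tnfrsf4, a neighbour of Tnfrsf18, did not. They are RefSeq windows of the C57BL/6J reference, build GRCm38.p6, and not of the BALB/c strain used here. The platform's own build is not given in the sources used here. RefSeq windows were found for 6 of the 9 genes. Only bases before the annotated gene are printed, 5′ to 3′ on the gene's strand, and capitals mark a match to the ETS core AGGAAG on either strand. The windows are, for Il7r, chr15:9529942-9530126 on the minus strand, for Il2ra, chr2:11642542-11642791 on the plus strand, for Tnfrsf18, chr4:156026072-156026321 on the plus strand, and for Tnfrsf4, chr4:156013445-156013594 on the plus strand.
Il7r: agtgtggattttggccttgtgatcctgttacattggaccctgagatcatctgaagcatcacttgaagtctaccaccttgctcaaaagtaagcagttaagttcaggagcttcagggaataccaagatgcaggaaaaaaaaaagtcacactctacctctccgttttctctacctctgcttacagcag
Il2ra: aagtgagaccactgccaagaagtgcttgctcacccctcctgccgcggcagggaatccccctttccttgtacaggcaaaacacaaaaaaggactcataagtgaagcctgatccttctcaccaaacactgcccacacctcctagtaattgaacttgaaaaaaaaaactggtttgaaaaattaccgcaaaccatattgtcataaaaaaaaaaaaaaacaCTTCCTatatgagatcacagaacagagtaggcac
Tnfrsf18: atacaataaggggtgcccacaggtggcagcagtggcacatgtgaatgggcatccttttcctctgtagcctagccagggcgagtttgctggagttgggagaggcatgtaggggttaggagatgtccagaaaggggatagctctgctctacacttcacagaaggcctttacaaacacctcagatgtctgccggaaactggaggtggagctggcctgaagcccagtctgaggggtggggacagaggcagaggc
Tnfrsf4: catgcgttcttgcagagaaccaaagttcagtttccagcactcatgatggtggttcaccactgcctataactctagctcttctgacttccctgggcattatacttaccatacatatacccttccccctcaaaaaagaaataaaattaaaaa

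Short motifs of factors known from innate lymphoid cells were searched on both strands of the full windows of 300 bases, which run from 250 bases before to 50 after a start site. GATA sites, spelled AGATAA or AGATAG or TGATAA or TGATAG, were found in 29.8% of 32851 such windows, the ETS core AGGAAG in 35.4%, the RUNX site TGTGGT in 16.8% and the ROR site AGGTCA in 16.3%. The Il7r window held 1 ETS core and 1 RUNX site, both outside the printed stretch, and the Il2ra window held the 1 ETS core printed above. The Tnfrsf18 window held none of these letters, and that of Tnfrsf4 held 1 GATA site, outside the printed stretch. Il7r and Tnfrsf18 thus shared none of these motifs in these windows. A match is a description of letters, and the arrays do not measure binding.

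Il2rb, the chain shared by the interleukin 2 and interleukin 15 receptors, was at 6.18 on the progenitor array, 5.86 on the mature array and 6.53 on the innate lymphoid array. Only the innate lymphoid level was above its array's median. The differences of 0.35 and 0.66 in favour of innate lymphoid cells did not reach 2-fold. Il17rb, the interleukin 25 receptor chain, was at 6.10 on all 3 arrays, exactly tied and below every array's median. Exact ties on all 3 arrays were found for 47.9% of all genes, so a tie at this level gives a bound on neither presence nor difference.

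Tnfrsf18, which encodes GITR, was at 7.38 on the progenitor array, 7.61 on the mature array and 9.41 on the innate lymphoid array. All 3 levels lay above their array's median, which among the 3 brighter genes held for Tnfrsf18 alone. Exact ties on all 3 arrays also occurred above the median, as for Lat at 8.30. A level above the median therefore does not by itself show a detected transcript, and the mast cell levels of Tnfrsf18 may include background. The difference was 2.03 against progenitors, or 4.09-fold, and 1.80 against mature cells, or 3.49-fold, so it passed the 4-fold rule in 1 comparison only and lay close to the limit in both. When the arrays were set to one common distribution, the difference from progenitors was 1.87 and fell under the rule. By the difference from the brighter mast cell array Tnfrsf18 ranked 109 of 22180 genes. A second probe set, which names Tnfrsf18 together with the provisional gene Gm16008, was at 6.35, 6.24 and 6.37 and is not attributed to either gene.

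Tnfrsf4, which encodes OX40, is a neighbour of Tnfrsf18 on chromosome 4, with 2 provisional gene models between them in the RefSeq table. It was at 6.98 on the progenitor array, 6.97 on the mature array and 6.96 on the innate lymphoid array, above the median on every array. Its 3 levels spanned 0.02, against 2.03 for Tnfrsf18. A receptor gene near Il2ra and another near Icos were exactly tied. Il15ra, the interleukin 15 receptor chain that lies 2 gene models from Il2ra on chromosome 2, was at 7.05 on all 3 arrays. Ctla4, an inhibitory receptor gene 2 gene models from Icos on chromosome 1, was at 5.09 on all 3, below every array's median. With 47.9% of all genes exactly tied, a tie bounds no difference, above the median or below it. The flat levels of Tnfrsf4 likewise do not separate absence of the transcript from equal levels.

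Icos was at 5.84 on the progenitor array, 6.04 on the mature array and 6.32 on the innate lymphoid array. The innate lymphoid level was just above its array's median and both mast cell levels were below theirs. The differences of 0.48 and 0.28 did not reach 2-fold. Klrg1 was at 6.05 on the progenitor array, 5.87 on the mature array and 8.11 on the innate lymphoid array, with both mast cell levels below their array's median. Its difference was 2.06 against progenitors and 2.24 against mature cells, or at least 3.48-fold and at least 3.52-fold over the median. Klrg1 thus passed the 4-fold rule by its measured values, close to the limit against progenitors, and its lower bounds are under 4-fold. By measured values it ranked 81 of 22180 genes, again with mast cell levels below the median.

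Ordered by the difference from the brighter mast cell array, the genes were Il7r (2.83), Klrg1 (2.06), Tnfrsf18 (1.80), Il2ra (0.66), Il2rb (0.35), Icos (0.28), Il17rb (0.00) and Tnfrsf4 (-0.02). A gap of more than 1 on the log2 scale separated Tnfrsf18 from Il2ra, and without replicates neighbours within the upper and the lower set cannot be ordered. The median difference over the 8 genes was 0.57 against progenitors and 0.66 against mature mast cells, and the median over all genes was 0 in both. Against both mast cell arrays 6 of the 8 differences were above 0, as were 16.6% of all genes against progenitors and 23.1% against mature cells. Among the 6, Il7r and Il2ra encode proteins of the gate. Il2rb and Icos were below the median on both mast cell arrays, so the size of their gaps is not resolved. Between the mast cell populations none of the 8 was at least 4-fold different, where 0.947% of all genes were, and their differences ran from -0.23 for Tnfrsf18 to 0.32 for Il2rb, a range within which 88.7% of all genes lay by size. Both shares are near those of all genes, and 5 of the 8 were below the median on both mast cell arrays, so nothing particular to the receptor genes is read from this comparison.

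**Figure D3:**
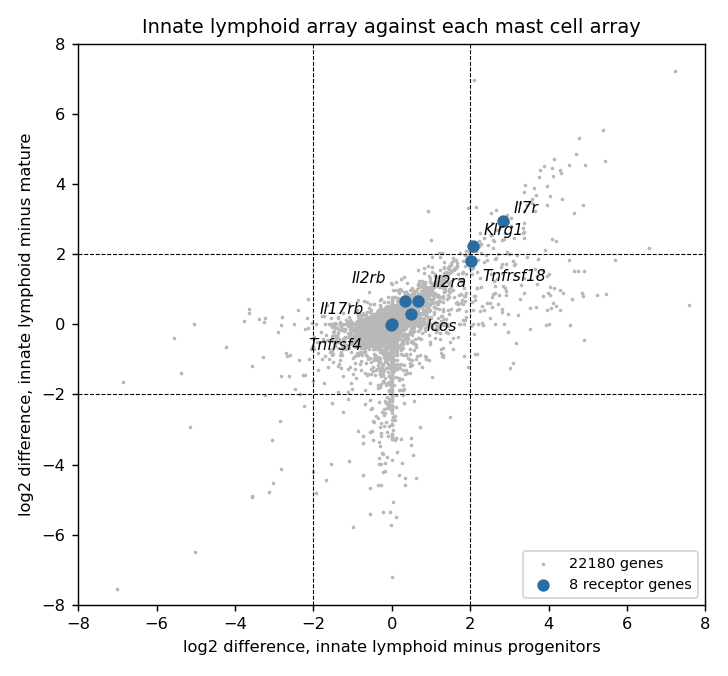
Log2 difference of the innate lymphoid array from progenitors (horizontal axis) and from mature mast cells (vertical axis) for 22180 genes (grey) and the 8 receptor genes (blue), with dashed lines at 4-fold. The axes share the innate lymphoid array, so position along the diagonal is no independent measure; Il7r and Klrg1 lie beyond both lines, Tnfrsf18 beyond the progenitor line only, and the other 5 near the centre.

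No measured gene of the wider receptor families reached 4-fold in any comparison, where 0.947% to 1.1% of all genes did so in each. Of 9 partner receptor chains none reached 2-fold in any comparison, among them Il17ra, the partner of Il17rb, at 7.30 on all 3 arrays, and Il9r, the interleukin 9 receptor, at 7.24, 7.15 and 7.24, in the order progenitor, mature and innate lymphoid array that is kept from here on. Of 15 other genes of the tumour necrosis factor receptor superfamily none reached 2-fold. Ltbr, the lymphotoxin β receptor, was at 8.45, 7.87 and 8.17, and Tnfrsf25, another costimulatory receptor, at 6.99 on all 3. None of 10 other genes of the CD28 family and inhibitory receptors reached 2-fold, including Cd28 at 6.37, 6.01 and 6.01 and Lag3 at 7.02, 6.96 and 7.02. Of 10 measured lectin-like receptor genes 1 reached 2-fold in innate lymphoid cells, Clec2d, a ligand of the NKR-P1 receptors, at 7.60, 8.19 and 8.67, and it did so against progenitors only. In either direction, a 2-fold difference from innate lymphoid cells was found for 2.65% of all genes in progenitors and for 2.6% in mature cells, and 2.44% differed by 2-fold between the mast cell arrays.

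Of 14 ligand genes none reached 2-fold in any comparison, where 2.44% to 2.65% of all genes did so in each. The innate lymphoid level equalled the progenitor level exactly for 11 of the 14 and the mature level for 10, where 57% and 60.6% of all genes were tied. Il7, the ligand of the Il7r chain, was at 6.68 on all 3 arrays, Il25, that of Il17rb, at 7.29 and Il4 at 6.50. Tied values of this kind do not separate absence of the transcript from equal levels.

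Of 18 measured genes that carry signals of the common γ chain none reached 4-fold in any comparison, where 0.947% to 1.1% of all genes did so in each. The count is near that share, so nothing particular to this pathway is read from it. Jak1, the kinase bound to Il7r and Il2rb, was at 7.93, 8.14 and 8.14. Mcl1, a survival protein of the Bcl-2 family, was at 8.45, 9.52 and 10.32, which is 1.87 higher in innate lymphoid cells than in progenitors and 0.80 higher than in mature cells. Its dimmer probe set, at 7.40, 7.40 and 8.20, was also highest in innate lymphoid cells, by less than 2-fold. Bcl2, the survival gene best known downstream of interleukin 7, was brightest in mature mast cells, at 7.73, 9.04 and 7.73, and its dimmer probe set, at 6.10, 5.96 and 6.31, did not show this. Socs1, a feedback inhibitor of these kinases, was at 6.60, 6.26 and 7.44, and reached 2-fold against mature mast cells only. Jak3 is not analysed here.

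None of 12 measured adaptors of the interleukin 17 and tumour necrosis factor receptors reached 2-fold, where 2.44% to 2.65% of all genes did so in each comparison. Nfkbia, the inhibitor of NF-κB, was at 8.45, 8.45 and 8.43, and Traf1 at 7.52, 7.04 and 7.04. Of 9 genes linked to ICOS and KLRG1 signalling none reached 4-fold, where 0.947% to 1.1% of all genes did so in each comparison. Rc3h1, which encodes Roquin, a repressor of Icos messenger RNA, was at 7.38, 7.38 and 8.81, at least 2-fold higher in innate lymphoid cells than in both mast cell arrays. Inpp5d, which encodes SHIP1, an inositol phosphatase of inhibitory receptor signalling, was at 7.21, 8.34 and 7.25 and highest in mature mast cells.

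**Figure D4:**
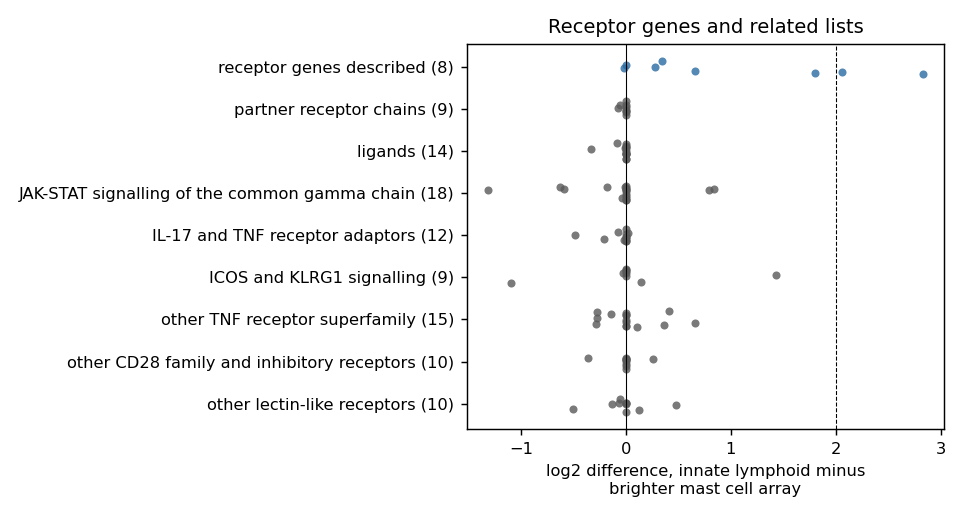
Log2 difference of the innate lymphoid array from the brighter mast cell array (horizontal axis) for the 8 receptor genes (blue) and 8 related lists (grey), 1 point per gene, with the number of measured genes in brackets and a dashed line at 4-fold. Il7r (2.83) and Klrg1 (2.06) lie beyond the line, Tnfrsf18 (1.80) just before it, and no gene of the other lists reaches it.

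The label of the innate lymphoid array was compared with a list of cell type markers. Of its 13 measured genes for this cell type, 3 lay at least 4-fold above both mast cell arrays, where 0.37% of all genes did. They were the chemokine receptor genes Ccr2 (5.82, 5.82 and 9.50) and Cxcr6 (6.03, 5.63 and 9.41) and the arginase gene Arg1 (6.90, 7.07 and 9.49). The marker lists were chosen with earlier results of these arrays known, so their counts are no test of the label. Transcription factors that define these cells did not reach 4-fold. Gata3 was at 6.76, 6.76 and 6.82, Rora at 6.64 on all 3, and Bcl11b at 7.02 on all 3. Id2, a regulator that innate lymphoid cells need to develop, was at 6.86, 7.29 and 7.81, and Ets1 at 6.71, 6.71 and 7.46, both short of 2-fold above the brighter mast cell array. The cytokine gene Il13, on the same list, was at 7.65, 7.41 and 7.41, highest in progenitors. The cytokine gene Il5 was brightest on the innate lymphoid array, at 6.09, but below the median on every array. The surface marker gene Thy1 was at 6.68 on all 3. Il13, Il5 and Thy1 did not reach 2-fold in any comparison. Of 12 mast cell markers, 4 were at least 4-fold lower in innate lymphoid cells than in progenitors and 9 lower than in mature cells, and none was higher. The shares of all genes lower by this rule were 0.207% and 0.573%. Kit and Fcer1a, both among the 9, encode proteins used in the sort, so their direction follows the gate and is not independent of it. The protease gene Cpa3 was at 12.30, 12.83 and 5.28, while the tryptase gene Tpsb2 was at 8.94, 11.74 and 7.85. On the innate lymphoid array 5 of the 12 mast cell markers, Tpsb2 among them, lay above the median. Il7r, Il2ra, Il2rb, Icos and Klrg1 are also known from T cells or natural killer cells, so markers of those cells are given beside them. None of 11 T cell markers and none of 8 markers of natural killer and type 1 innate lymphoid cells reached 2-fold in any comparison. Exact ties between the innate lymphoid and progenitor arrays made up 7 of the 11 and 5 of the 8. Their largest differences between the innate lymphoid array and the brighter mast cell array were 0.12 and 0.00. The T cell receptor component Cd3e was at 6.10 and the natural killer receptor Ncr1 at 5.73 on all 3 arrays. Summed over the list on the linear scale, T cell markers were at 1350, 1300 and 1327, and those of natural killer cells at 647, 617 and 610. Of 6 B cell, 9 macrophage and 6 eosinophil and basophil markers none reached 2-fold either. The summed levels were 637, 609 and 625 for B cells, 880, 796 and 831 for macrophages and 479, 429 and 453 for eosinophils and basophils. Rora and Bcl11b, markers of the sorted cells themselves, were tied as well. Flat markers and flat sums therefore do not show that other cell types were absent.

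Genes whose levels followed the 3 brighter receptors most closely were found by the distance between their 3 log2 levels, each gene centred on its own mean, over 18824 genes. With 3 arrays many genes share a pattern, and the distance is a description. Nearest to Il7r were Dgka, a diacylglycerol kinase, at 6.15, 6.07 and 8.99 (distance 0.04), Bcl2a1a (0.09), Ei24 (0.12), Zfp526 (0.16) and Ggps1 (0.17). Bcl2a1a belongs to a family of near-identical genes, and its probe set may not separate them. Nearest to Tnfrsf18 were Apbb1ip, an adaptor of the integrin regulator Rap1, at 6.88, 7.18 and 8.91 (0.05), Vmn1r94 (0.07), Rrp1 (0.12), Ifngr1, the interferon γ receptor chain, at 7.62, 7.70 and 9.51 (0.12), and Rap2c (0.13). Nearest to Klrg1 were Prkaca, a catalytic subunit of protein kinase A, at 6.21, 6.10 and 8.17 (0.12), Vmn2r84 (0.12), Chchd5 (0.13), Anapc11 (0.13) and Pgp (0.13). Vmn1r94 and Vmn2r84 encode vomeronasal receptors, proteins of sensory neurons. Of 1390 genes for olfactory and vomeronasal receptors, chosen as a background with the data known, 3 (0.216%) were at least 4-fold above both mast cell arrays in innate lymphoid cells, where 82 (0.37%) of all genes were. Passing the size rule on single arrays is therefore not by itself a mark of expression in these cells.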

How the data were processed

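The 3 arrays hold whole-transcript cDNA amplified from 100 sorted cells each, per the labels' protocols. The authors deposited log2 levels for 41345 probe sets. The submitters' processing notes name RMA, with no version, and the values, from 2.23 to 13.7, fit a log2 scale. Amplification from few cells can lose transcripts, background shrinks differences of dim genes, and only 3 arrays limit the precision.

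By the platform's gene table, 23521 probe sets name 1 gene, 1814 several and 16010 none. The probe set of highest mean stood for each gene, and each receptor had 1. Differences were taken between arrays with no test, since each population has 1 array. The 4-fold rule with a floor at the array's median was run on simulated arrays with an assumed noise. Without replicates that noise cannot be set from the data, so the run gives no error rate for these arrays. Named genes were drawn from the members, called or bright members of each list, and the 5 nearest patterns of each member spanning 4-fold. Further list genes, such as Gata3, Rora and Socs1, were named as examples, and not every gene that met the rule is printed. Members, lists and rules were chosen with earlier results of these data known. Alternatives were the floor, scaling, probe set choice and size rule. Python 3.11.15, pandas 2.3.3, numpy 2.4.6 and matplotlib 3.10.9 were used.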

Additional observations from a re-analysis of the deposited data

How the results depend on the processing

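The counts of receptor genes at least 4-fold higher in innate lymphoid cells (3 against progenitors and 2 against mature mast cells) and the count of 0 between the mast cell populations were the same without a floor, with a floor at the 75th percentile, with recentred arrays, and with the 3 other ways of choosing probe sets. The probe set choices could not change these counts, since each receptor had 1 probe set naming it alone. Nor could the floors, since every called level was 8.11 or more, above the 75th percentile of 6.86, and the other gaps were under 2. These settings are therefore no check of the counts. Setting the arrays to one distribution took Tnfrsf18 to 1.87 against progenitors, which left 2 genes there. At 2-fold and at 3-fold the count against mature mast cells was 3, with Tnfrsf18 added. No receptor difference changed sign for a called gene, and the largest move under any scaling was 0.16. No paired analysis was possible because each population has 1 array, and leaving out a replicate was not possible for the same reason. Levels below an array's median limit Il17rb on every array, and Il7r, Il2rb, Icos and Klrg1 on both mast cell arrays.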
